A study of Mus musculus with 10 samples.

Results

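The Hox genes of the mouse were examined in luminal and basal cells sorted from the mammary gland. Members were all genes of the deposited count table whose symbol is Hox, a cluster letter from a to d and a paralogue number, which gave 39 genes of 24594 in all. These were 11 Hoxa genes on chromosome 6, 10 Hoxb genes on chromosome 11, 9 Hoxc genes on chromosome 15 and 9 Hoxd genes on chromosome 2. The cells came from wild-type C57BL/6J mice, and the study's methods give ages of 12 to 20 weeks for experiments. Mammary tissue was dissociated, and for its sorts the study describes staining with lineage antibodies to TER-119, CD31 and CD45. Sorting by antibodies to EpCAM and CD49f then gave luminal cells, which line the duct, and basal cells, the myoepithelial layer around them. There were 5 libraries of each cell type and no transgene or treatment. Same-numbered luminal and basal libraries share a leading library number, which was read as the animal.

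Hox genes encode transcription factors that bind DNA through a homeodomain, and they lie in 4 clusters that arose by duplication of a single ancestral cluster. Genes at the same place in different clusters form a paralogue group, numbered from 1 at the 3′ end of the cluster to 13 at the 5′ end. In the embryo, genes of low number are switched on earlier and further forward along the body than genes of high number. Many Hox proteins bind DNA together with cofactors of the TALE family, the PBX, MEIS and PKNOX proteins. In the mammary gland Hox genes are best known for roles in the position of the gland and in its growth during pregnancy.

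In all 10 libraries the title contradicts the cell type label, and grouping followed the label. All 9 luminal and all 7 basal markers followed the label. Library totals ranged from 13203146 to 17998165 counts, and 3 counts corresponded to 0.158 to 0.232 CPM, the usual depth-scaled count, on library totals scaled by TMM. Markers of other cell types were present, and several moved with the comparison. The summed level of 8 fibroblast genes ranged from 28.4 to 119 CPM in luminal and from 64.2 to 102 CPM in basal libraries. These sums hide members that moved apart. Fbn1 (32.0-fold), Pdgfrb (14.3-fold) and Pdgfra (2.13-fold) were called higher in basal cells. Dcn (3.19-fold) was called higher in luminal cells, and 4 were not called. Over all genes tested, 31.2% were called higher in basal and 33.6% higher in luminal cells, so these calls are no more than the background. The sum of 3 pericyte genes ranged from 94.9 to 268 CPM in luminal and from 23.8 to 38.1 CPM in basal libraries. The luminal pericyte sum was mostly Notch3, with means of 165 CPM in luminal and 4.58 CPM in basal libraries. The other 2 genes went the opposite way. Rgs5 had a mean of 0.160 CPM in luminal and 21.7 CPM in basal libraries, and Cspg4 of 0.0123 and 2.61 CPM. The 4 endothelial genes summed to 1.69 to 4.06 and 6.00 to 13.1 CPM, and the 4 immune genes to 8.19 to 14.3 and 33.4 to 59.4 CPM. The immune sums were mostly Cd74, with means of 2.62 CPM in luminal and 20.7 CPM in basal libraries, and Cd68, with 8.28 and 29.7 CPM. Ptprc leaned the other way, with at most 6 counts in a luminal and 1 in a basal library. The T cell gene Cd3e had no count in any library. Of 3 adipocyte genes, Adipoq had no count, Plin1 had at most 17, and Fabp4 was higher in basal cells, at 1.01 ± 0.382 CPM in luminal and 5.42 ± 1.70 CPM in basal libraries (SD, n = 5; log2 fold change -2.41, edgeR adjusted p = 4.22e-05). The red blood cell gene Hba-a1 ranged from 3.37 to 15.9 CPM in luminal and from 0 to 0.188 CPM in basal libraries (log2 fold change 7.34, edgeR adjusted p = 4.41e-07). Only the luminal libraries could bring Hba-a1 to a test, and Fabp4, with 7 counts in luminal replicate 4, needed its basal ones. Fbn1 and Pdgfrb, with 6 and 0 counts in that library, also needed their basal ones. The p and calls of these genes add little to the values themselves. The part of these cell types in the Hox values was not tested. In such bulk samples, fewer cells of a type and less RNA per cell cannot be told apart.

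Only 3 of the 39 Hox genes were detected, meaning at least 10 counts in every library of a cell type, and they were the same 3 in both cell types: Hoxb2, Hoxb3 and Hoxb4. They are neighbours on the plus strand of chromosome 11 and belong to paralogue groups 2, 3 and 4. In the RefSeq gene table of GRCm38.p6, Hoxb4 (Entrez 15412) lies at chr11:96318267-96321638, Hoxb3 (Entrez 15410) at chr11:96307101-96347930 and Hoxb2 (Entrez 103889) at chr11:96351632-96354020. Hoxb4 thus lies within the span of Hoxb3, whose first exons start further upstream. The homeobox of Hoxb2 is shown because it encodes the homeodomain, through which Hox proteins bind DNA. It is 180 bases long, lies in a single exon and was read 5′ to 3′ from the GENCODE M21 transcript with the longest coding sequence. Capitals mark the 6 codons at the core of the third helix, which lies in the major groove of the DNA.
Hoxb2, chr11:96352985-96353164, plus strand: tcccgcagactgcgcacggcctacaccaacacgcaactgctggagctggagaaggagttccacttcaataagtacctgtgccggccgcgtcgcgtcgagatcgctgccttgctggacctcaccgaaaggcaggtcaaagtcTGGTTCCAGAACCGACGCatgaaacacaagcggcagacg

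The closest match of the Hoxb2 homeobox was Hoxd3, at 140 of 180 bases (77.8%). None of the 4199 windows of 50 bases in Hoxb3 transcripts and none of the 3485 in Hoxb2 transcripts occurred in a transcript of another Hox gene. In Hoxb4 transcripts, 3 of 2516 windows (0.119%) did, all in Hoxa6, which had no count in any library.

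Seen by cluster, all detected genes were in Hoxb. In luminal libraries 3 of 10 Hoxb genes were detected, against 0 of 11 Hoxa, 0 of 9 Hoxc and 0 of 9 Hoxd genes, and the same counts held in basal libraries. Seen by paralogue group, groups 2, 3 and 4 each had 1 detected member, the Hoxb one, and none of the other 10 groups had any. All genes of groups 12 and 13 had no count in any of the 10 libraries. The remaining genes fell into 2 classes. A gene was at the floor in a cell type when no library of it had more than 3 counts, and a trace when it lay between the floor and detection. In luminal cells 24 genes were at the floor and 12 were traces, and in basal cells 21 were at the floor and 15 were traces.

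**Figure D1:**
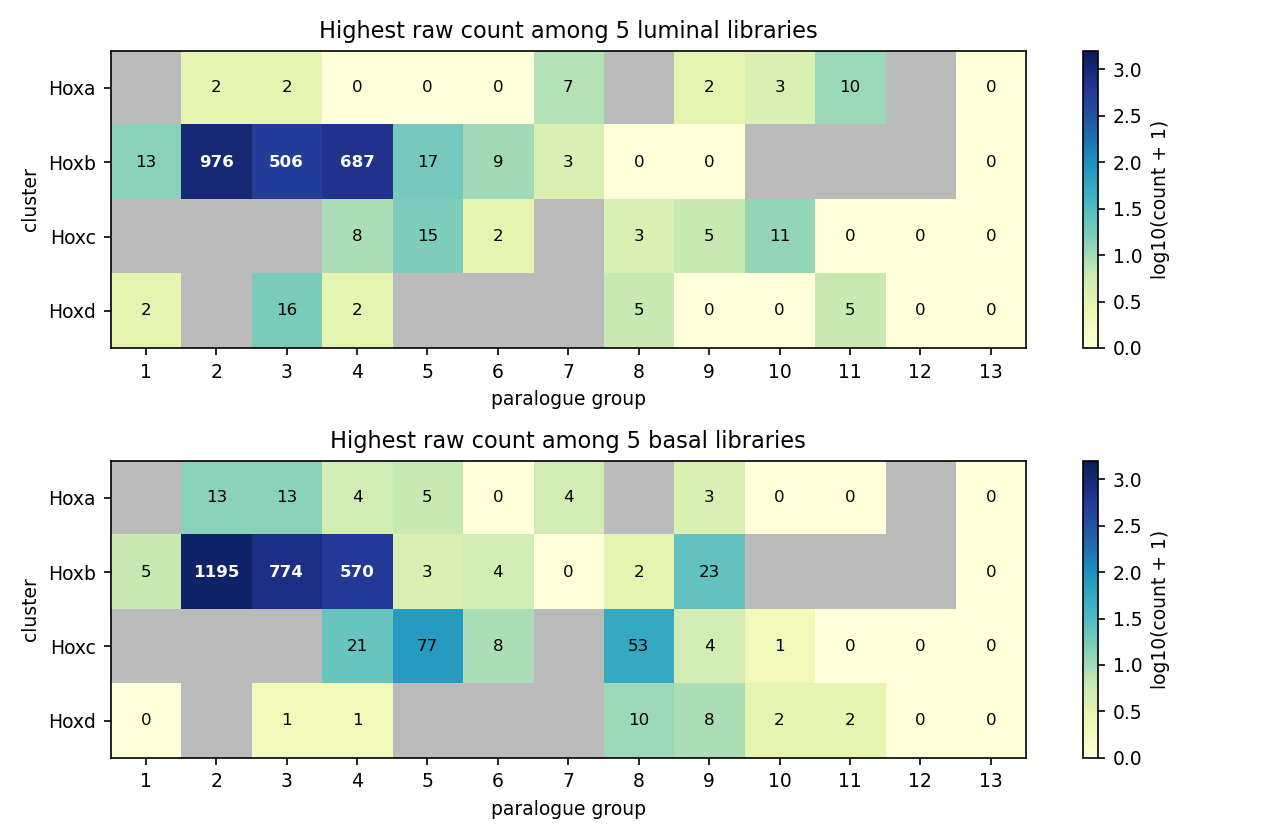
Highest raw count of each Hox gene among the 5 luminal libraries (top) and the 5 basal libraries (bottom), with clusters as rows and paralogue groups as columns, coloured on a log10 scale. Grey marks positions with no gene or not shown, and bold numbers mark genes with at least 10 counts in every library, which are Hoxb2, Hoxb3 and Hoxb4 in both cell types.

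The Hoxb cluster therefore held nearly all Hox counts. Its share of the summed Hox CPM was 98.3% ± 1.51 (SD, n = 5) in luminal and 96.4% ± 3.58 (SD, n = 5) in basal libraries. Hoxc followed with 0.761% ± 0.765 in luminal and 2.51% ± 3.22 in basal libraries (SD, n = 5), or 1.08% without basal replicate 4. Hoxa had 0.398% ± 0.349 and 0.734% ± 0.628, and Hoxd had 0.560% ± 0.586 and 0.350% ± 0.175 (SD, n = 5), the luminal Hoxd share being 0.328% without luminal replicate 4. The Hoxa share counts Hoxa2 and Hoxa3 separately, though their counts were identical in all 10 libraries. Their signal, 28 counts for each over the basal libraries, thus enters it for both genes and raises it. In luminal libraries the ranges of Hoxa, Hoxc and Hoxd overlapped. In basal libraries the lowest Hoxc share (0.805%) lay above the highest Hoxd share (0.549%), while Hoxa overlapped with both. All Hox genes together took 0.0115% ± 0.00151 of luminal and 0.0118% ± 0.00122 of basal counts (SD, n = 5).

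Hoxb3, a group 3 gene, was called higher in basal cells, the only call among the 3 Hox genes tested. In luminal replicates 1 to 5 its counts were 444, 464, 506, 395 and 406, or 27.8, 24.4, 31.0, 30.2 and 25.8 CPM. In basal replicates 1 to 5 its counts were 708, 614, 558, 541 and 774, or 44.2, 41.9, 43.2, 33.8 and 46.4 CPM. Every basal library lay above every luminal library, the nearest being basal replicate 4, and all 5 same-numbered pairs had the same order. Among all 14609 genes tested, 25.3% had basal libraries that all lay above the luminal ones. The means were 27.8 ± 2.81 CPM in luminal and 41.9 ± 4.80 CPM in basal cells (SD, n = 5), and the log2 fold change of luminal over basal was -0.59 ± 0.137 (SE; edgeR quasi-likelihood test, Benjamini-Hochberg adjusted p = 0.00168). That is a level 1.505-fold higher in basal cells.

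Hoxb2, the group 2 gene, varied more between libraries than between cell types. Its counts were 539, 605, 635, 728 and 976 in luminal replicates 1 to 5 and 1195, 659, 575, 531 and 905 in basal replicates 1 to 5. In CPM these were 33.7, 31.9, 39.0, 55.6 and 61.9 in luminal and 74.5, 44.96, 44.5, 33.2 and 54.2 in basal libraries. The highest value was that of basal replicate 1 and the lowest that of luminal replicate 2, the groups overlapped widely, and 3 of 5 pairs were higher in basal cells. The log2 fold change was -0.18 ± 0.234 (SE; edgeR adjusted p = 0.515), so a difference of either sign within about that error was not resolved.

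Hoxb4, the group 4 gene, is known for its use in expanding blood stem cells. Its counts were 687, 525, 504, 358 and 576 in luminal replicates 1 to 5 and 398, 335, 359, 570 and 500 in basal replicates 1 to 5. These were 43.0, 27.7, 30.9, 27.3 and 36.5 CPM in luminal and 24.8, 22.9, 27.8, 35.6 and 30.0 CPM in basal libraries. Luminal values were higher in 4 of 5 pairs, with the pair of replicate 4 in the other direction, and the groups overlapped. The log2 fold change was 0.23 ± 0.171 (SE; edgeR adjusted p = 0.256), which did not pass the test.

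**Figure D2:**
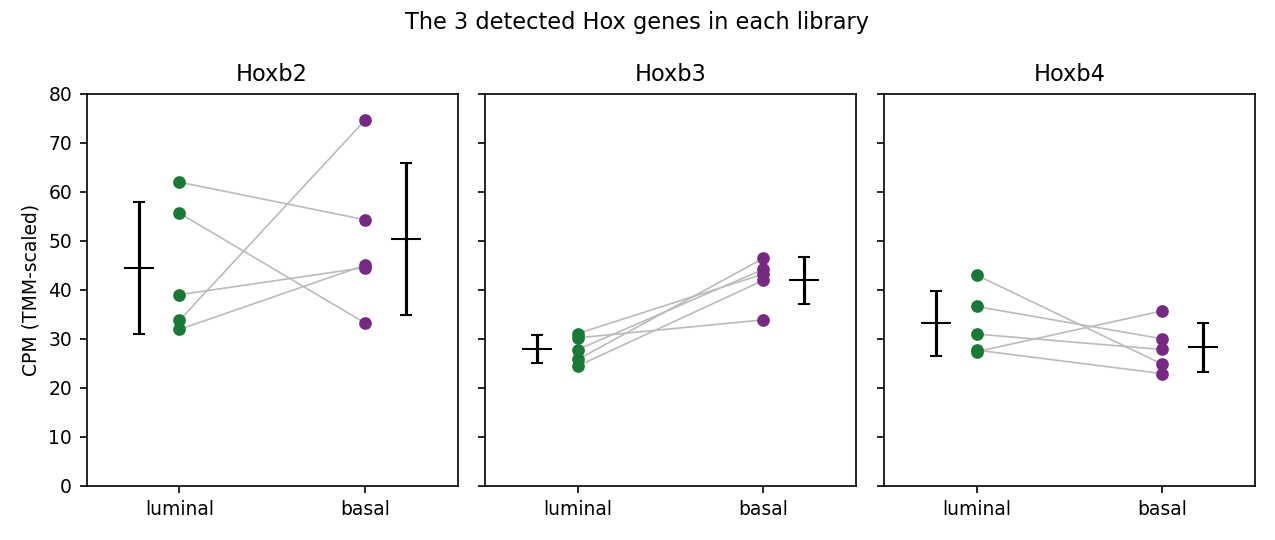
CPM of Hoxb2, Hoxb3 and Hoxb4 in each library (points, luminal green and basal purple), with lines joining same-numbered libraries and black bars giving the mean and SD of 5 libraries. For Hoxb3 all basal points lie above all luminal points, while for Hoxb2 and Hoxb4 the groups overlap.

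Of the 3 Hox genes tested, 1 was thus called higher in basal cells, where the background over all genes tested is 31.2%, and 0 were called higher in luminal cells, where it is 33.6%. None of these 3 had an unadjusted p under 0.05 with a higher luminal level, and DESeq2 and limma voom also called 0. With 3 members tested, these counts say nothing about Hox genes against other genes. The other 36 members did not pass the filter on low counts.

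Levels of different genes can be set side by side only per length, here CPM per kilobase of exon in GENCODE M21. In luminal cells Hoxb4 stood at 12.9 ± 2.59 and Hoxb2 at 12.7 ± 3.88, which did not differ beyond their spread, and Hoxb3 at 6.55 ± 0.660 (SD, n = 5) lay below both in every library. In basal cells Hoxb2 stood at 14.4 ± 4.44, Hoxb4 at 10.99 ± 1.94 and Hoxb3 at 9.85 ± 1.13 (SD, n = 5), and neighbours in that order overlapped. Hoxb2, Hoxb3 and Hoxb4 stood above 73.1%, 56.4% and 73.5% of 13702 genes with a known exon length in luminal cells and above 75.2%, 66.4% and 68.9% in basal cells. All 3 genes thus stood above the median of the tested genes in either cell type.

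The ratio of 2 genes within a library does not depend on how library totals are scaled. The ratio of Hoxb4 to Hoxb3 counts ranged from 0.906 to 1.55 in luminal and from 0.546 to 1.05 in basal libraries, with means of 1.20 ± 0.274 and 0.690 ± 0.208 (SD, n = 5). It was higher in luminal cells in 4 of 5 pairs (exact permutation test on log2 ratios, two-sided, p = 0.0238). After adjustment over the 3 ratios tested the p was 0.0714 in this exact test, so the difference did not pass. The ratios of Hoxb4 to Hoxb2 and of Hoxb3 to Hoxb2 gave adjusted p of 0.294 and 0.214 in the same exact permutation test, whose smallest possible raw p is 0.00794.

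The counts of Hoxb2 and Hoxb3 cannot be separated from those of an antisense gene. Hoxb3os (Entrez 102632302), transcribed from the opposite strand, shares 2250 exon bases with Hoxb3, 52.9% of its exon length, and 953 bases with Hoxb2, or 27.3%. Hoxb3os had 961, 1059, 1102, 1096 and 1355 counts in luminal and 1919, 1276, 1077, 1025 and 1644 counts in basal replicates 1 to 5. In every library this number lay close to the sum of Hoxb2 and Hoxb3, at 0.951 to 1.01 times that sum. Whether counting used the strand is not given in the sources used here, so part of these reads may be counted for both strands. The log2 fold change of Hoxb3os was -0.36 ± 0.178 (SE; edgeR adjusted p = 0.0918), between those of Hoxb2 and Hoxb3. Hoxb4 shares no exon base with another gene of GENCODE M21.

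**Figure D3:**
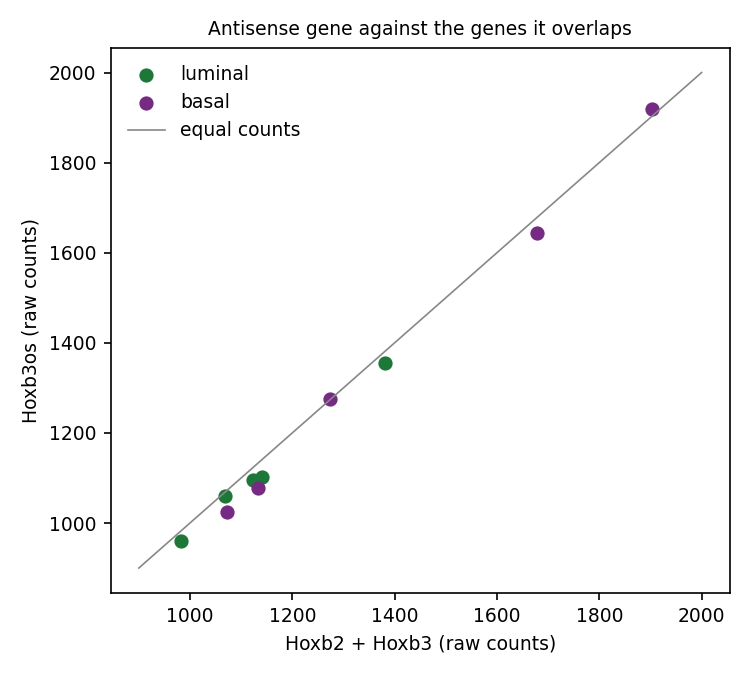
Raw counts of the antisense gene Hoxb3os against the sum of Hoxb2 and Hoxb3 in each of 5 luminal (green) and 5 basal (purple) libraries, with a grey line of equal counts. All points lie close to the line, the ratio ranging from 0.951 to 1.01.

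Promoter windows are shown for a detected and an undetected gene of Hoxb. The RefSeq promoter table of GRCm38.p6, which gives 250 bases before to 50 after a gene's start, held windows for 22 of the 39 Hox genes. Shown are Hoxb4, detected in all libraries, and Hoxb8, a group 8 gene of the same cluster with 2 counts at most. Capitals mark matches on either strand to any of 4 motifs, the E-box CACGTG, the CCAAT box CCAAT, the TATA box TATAAA and the PBX-HOX site TGATNNAT.
Hoxb4, chr11:96318017-96318316, plus strand: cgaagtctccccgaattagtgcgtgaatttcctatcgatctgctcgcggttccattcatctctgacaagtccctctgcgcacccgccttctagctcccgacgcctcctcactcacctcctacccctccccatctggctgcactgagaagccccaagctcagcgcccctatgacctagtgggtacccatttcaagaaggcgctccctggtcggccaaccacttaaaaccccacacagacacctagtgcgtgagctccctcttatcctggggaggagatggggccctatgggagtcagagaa
Hoxb8, chr11:96281655-96281954, plus strand: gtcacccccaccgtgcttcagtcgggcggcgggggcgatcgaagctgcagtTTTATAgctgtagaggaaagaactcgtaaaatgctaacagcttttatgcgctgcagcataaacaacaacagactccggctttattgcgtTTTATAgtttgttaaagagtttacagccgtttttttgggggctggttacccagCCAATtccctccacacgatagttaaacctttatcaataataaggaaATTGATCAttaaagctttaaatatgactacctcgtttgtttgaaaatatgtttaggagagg

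The Hoxb4 window held none of the 4 motifs, and the Hoxb8 window held 2 TATAAA, 1 CCAAT and 1 TGATNNAT match, none overlapping another. Of 32851 promoter windows of all genes, 7.15% held CACGTG, 37.4% CCAAT, 13.6% TATAAA and 8.85% TGATNNAT. Of the 24 Hox windows, 5, 15, 4 and 4 held them. The Hoxb4 window had 58.0% G and C bases and 14 CpG dinucleotides, and the Hoxb8 window 42.3% and 13, against medians of 52.7% and 7 over all windows. A match to such letters is a description of the window and no more.

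Among the 36 Hox genes that were not detected, 9 had no count in any library, among them the 6 genes of groups 12 and 13, which are Hoxa13, Hoxb13, Hoxc12, Hoxc13, Hoxd12 and Hoxd13. A count of 0 allows up to 3 counts, that is up to 0.158 to 0.232 CPM by library, for counting error only. A further 7 never exceeded 3 counts: Hoxa9, Hoxa10, Hoxb7, Hoxb8, Hoxd1, Hoxd4 and Hoxd10. The highest count was between 4 and 9 for 8 genes: Hoxa4, Hoxa5, Hoxa7, Hoxb6, Hoxc6, Hoxc9, Hoxd9 and Hoxd11. The other 12 genes reached 10 counts in at least 1 library but not in all libraries of a cell type. Together, genes other than Hoxb2, Hoxb3 and Hoxb4 gave 18 to 87 counts in a luminal and 44 to 180 in a basal library. These sums count the identical values of Hoxa2 and Hoxa3 separately. Basal replicate 4 had the highest number, 180, or 9.88% of its Hox counts, and without it the highest basal number was 98.

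Hoxb9, a group 9 gene known for a role with its paralogues in mammary growth during pregnancy, was a trace seen in basal libraries only. It had 18, 21, 23, 0 and 13 counts in basal replicates 1 to 5 and 0 in every luminal library. Basal replicate 4 was thus at 0 like the luminal libraries. The basal mean was 1.02 ± 0.681 CPM (SD, n = 5), at least 5.39-fold higher than 3 counts per luminal library. Hoxb9 did not pass the filter, which asks for 10 counts in 5 libraries, and has no test in the main comparison. When no filter was applied, edgeR gave it an adjusted p of 0.00106, and it was 1 of 7 Hox genes then called, among 30 with a value, Hoxa2 and Hoxa3 with their identical counts being counted as 2. In that fit, which took in 20612 genes, 48.8% of all genes were called, 24.7% higher in basal and 24.1% higher in luminal cells, so 7 of 30 is no more than the background. Since only the basal libraries could bring this gene to a test, that p adds little to the counts themselves.

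The group 4 to 6 genes of Hoxc, which lie next to each other, had a count in every basal library. Hoxc4 had 3, 3, 5, 16 and 21 counts in basal replicates 1 to 5, and in luminal cells only replicate 5 had any, with 8. Hoxc6 had 8, 3, 3, 4 and 2 counts in basal libraries, and only luminal replicate 3 had any, with 2. Hoxc5 had 8, 9, 5, 77 and 10 counts in basal and 3, 0, 15, 10 and 0 in luminal replicates 1 to 5. Except for basal replicate 4, its values overlapped between the cell types. With at least 1 count in every library as the limit, 7 Hox genes would be detected in basal cells, these 3 and Hoxb1 beside Hoxb2, Hoxb3 and Hoxb4, and 3 in luminal cells.

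Hoxc8, a group 8 gene, was a trace of a single library. Basal replicate 4 had 53 counts and the other basal libraries had 0, 0, 0 and 1, while luminal replicates 1 to 5 had 1, 0, 1, 3 and 0. In basal replicate 4 the TALE cofactor Meis2 also stood apart, with 77 counts against 1, 0, 7 and 9 in the other basal libraries, and Hotairm1, a non-coding gene at the 3′ end of Hoxa, had 13 counts against 0 in all other basal libraries. In that library the 8 fibroblast genes summed to 64.2 CPM, the lowest of the basal libraries, and the 3 adipocyte genes to 8.88 CPM, the highest, where the other basal libraries ranged from 3.95 to 6.67 CPM. The part of other cell types in these traces was not tested.

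Other traces leaned to the luminal side or to no side. Hoxb5, a group 5 gene, had 10, 3, 17, 0 and 8 counts in luminal and 0, 2, 0, 0 and 3 in basal replicates 1 to 5, and Hoxb1, the group 1 gene of Hoxb, had 5, 0, 13, 0 and 0 in luminal and 2, 1, 5, 2 and 1 in basal replicates. Hoxd3 had 16 counts in luminal replicate 4 and no more than 4 elsewhere. Hoxc10 had 11 counts and Hoxa11 10 counts in that same library, with no more than 5 and 0 elsewhere. Hoxd8 had 10 counts in basal replicate 1 and no more than 5 elsewhere. Luminal replicate 4 therefore held the highest count of Hoxd3, Hoxc10 and Hoxa11, genes of 3 different clusters.

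Some traces cannot be assigned to 1 gene. Hoxa2 and Hoxa3 had identical counts in all 10 libraries, 0, 0, 0, 2 and 1 in luminal and 2, 8, 0, 5 and 13 in basal replicates 1 to 5, and were read as 1 signal. Hoxa11 and its antisense gene Hoxa11os likewise had identical counts in all 10 libraries. Of the 39 Hox genes, 16 share exon bases with another gene, among them Hoxd3 with Hoxd4 over 388 bases and Hoxc5 with Hoxc10 over 166 bases. Hoxa2 and Hoxa3 share no exon base with each other, though both overlap Gm28308, over 267 and 482 bases. Why their counts are identical was not tested.

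**Figure D4:**
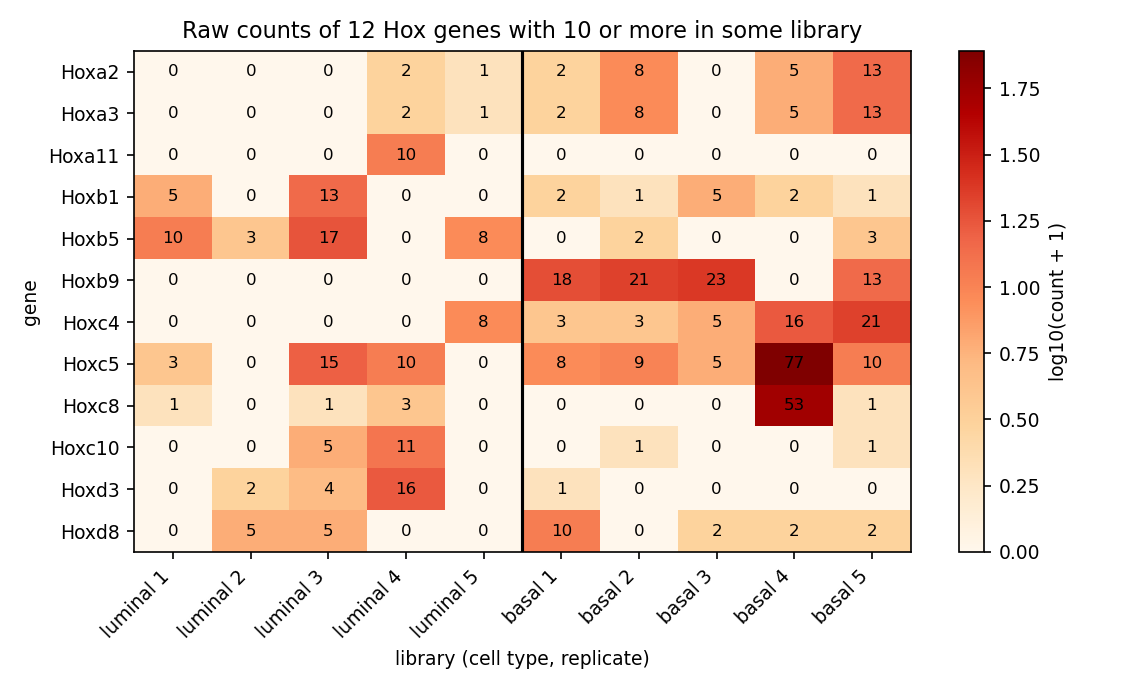
Raw counts of the 12 Hox genes that reached 10 counts in some library but not in every library of a cell type, with genes as rows, the 10 libraries as columns and colour on a log10 scale. Hoxb9 has counts in 4 basal and no luminal libraries, Hoxc5 and Hoxc8 peak in basal replicate 4 at 77 and 53 counts, and the rows of Hoxa2 and Hoxa3 are the same.

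Most genes that lie among the Hox genes also had few or no counts. Of 32 such genes in the RefSeq table, 20 were in the count table, 11 never exceeded 3 counts and 9 of these had no count, among them Hotair, Haglr and the microRNA genes Mir10b, Mir196a-2, Mir196b and Mir615. Mir10a, which lies just upstream of Hoxb4, had 5 counts in luminal replicate 2 and 0 elsewhere, in libraries that were not made to hold mature microRNAs. Hoxb3os was the only one tested. At the outer borders, Evx1 and Evx2, homeobox genes at the 5′ ends of Hoxa and Hoxd, had no count. Of 10 flanking genes tested, 4 were called higher in luminal and 0 in basal cells, where 33.6% and 31.2% of all genes were called in these directions. Those were Skap2, an adaptor protein gene (log2 fold change 1.66 ± 0.180, SE, adjusted p = 1.83e-06 in edgeR), Snx10, Hibadh and Atp5g2, with log2 fold changes of 1.315, 1.17 and 1.21. The first 3 flank Hoxa and Atp5g2 flanks Hoxc.

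The TALE cofactors were mostly detected, with exceptions. The list held 11 genes, the PBX, MEIS and PKNOX genes and also Tgif1 and Tgif2 of the same family. Of these, 8 had at least 10 counts in every library of both cell types. Pbx4 and Pknox2 had them in every library of 1 cell type, and Meis2 in neither. Of these 11, 10 were tested, 4 were called higher in luminal cells and 4 in basal cells, and 7 had libraries that did not overlap, where 50.1% of all genes tested did. The median log2 fold change of the 10 was -0.05, against 0.05 over all genes tested. Either direction together, 64.8% of all genes tested were called, so 8 of 10 is not far from the background.

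Among the PBX genes, which encode the direct partners of Hox proteins, the direction differed from gene to gene. Pbx2 was at 93.7, 91.8, 89.9, 97.6 and 91.7 CPM in luminal and 40.3, 44.9, 43.3, 40.1 and 40.2 CPM in basal replicates 1 to 5. It was higher in every luminal library, with a log2 fold change of 1.15 ± 0.110 (SE; edgeR adjusted p = 4.69e-07). Pbx3 was higher in basal cells (-1.86 ± 0.290, SE, adjusted p = 6.14e-05 in edgeR), at 2.89 ± 1.20 CPM in luminal and 10.5 ± 2.37 CPM in basal cells (SD, n = 5). Pbx4 went with Pbx2 (2.69 ± 0.533, SE, adjusted p = 4.94e-04 in edgeR) but at a low level, with 15 to 47 counts in luminal and 1 to 7 in basal libraries. Since only the luminal libraries could bring Pbx4 to a test, that p adds little to the counts themselves.

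The MEIS genes, whose proteins bind DNA with PBX and Hox proteins, were higher in luminal cells where they were tested. Meis1 was at 14.01, 26.9, 27.2, 32.45 and 17.0 CPM in luminal and 6.05, 5.87, 6.81, 6.13 and 6.17 CPM in basal replicates 1 to 5. Its luminal values varied by over 2-fold but all lay above the basal ones (log2 fold change 1.92 ± 0.229, SE, edgeR adjusted p = 4.81e-06). Meis3 was at 11.8 ± 2.61 CPM in luminal and 7.78 ± 1.59 CPM in basal cells (SD, n = 5), with overlapping libraries (0.60 ± 0.222, SE, edgeR adjusted p = 0.0289). That call was lost without a filter and when any of luminal replicates 2 and 3 and basal replicates 1, 4 and 5 was left out, with adjusted p of 0.0573 to 0.0736. Meis2 was not tested, having 3 to 13 counts in luminal libraries and the values given above in basal ones.

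Among the PKNOX and TGIF genes, Pknox2 was higher in basal cells, at 15.9 ± 2.88 CPM against 1.94 ± 1.21 CPM in luminal cells (SD, n = 5; log2 fold change -3.05 ± 0.400, SE, edgeR adjusted p = 1.20e-05). With 9 counts in luminal replicate 2, Pknox2 needed its basal libraries to pass the filter, so that p adds little to the values themselves. Tgif2, a repressor of the same family, was also higher in basal cells (-1.84 ± 0.170, SE, edgeR adjusted p = 3.57e-07). Pknox1 had a log2 fold change of -0.41 (edgeR adjusted p = 0.132) and Tgif1 of 0.31 (edgeR adjusted p = 0.27), and neither passed the test. The 2 genes whose products hinder Hox complexes went in opposite directions. Pbxip1, which keeps PBX proteins from DNA, was higher in basal cells (-0.75 ± 0.149, SE, edgeR adjusted p = 5.01e-04). Gmnn, whose product geminin binds Hox proteins, was higher in luminal cells (1.13 ± 0.300, SE, edgeR adjusted p = 0.00425).

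**Figure D5:**
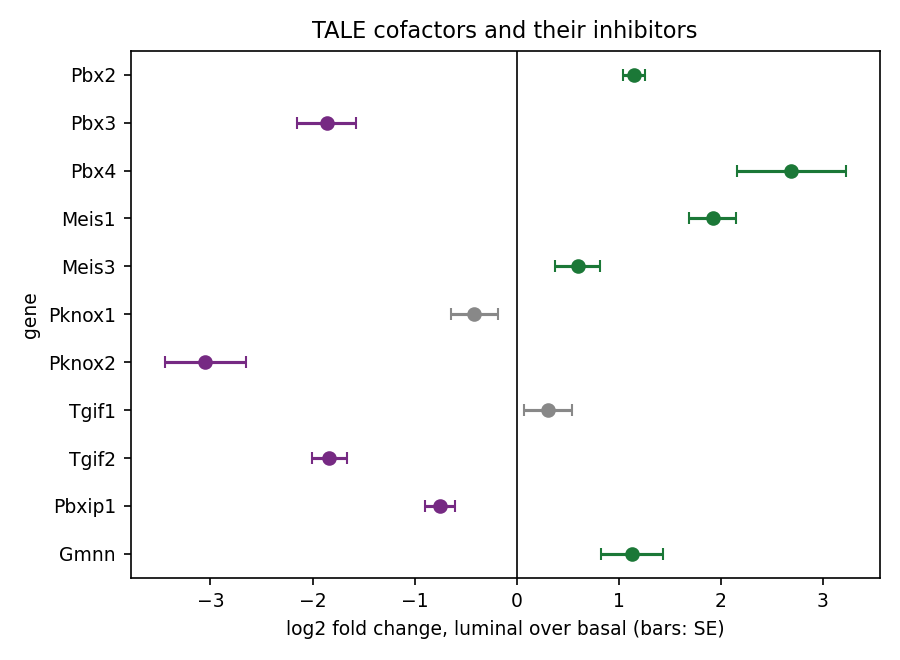
Log2 fold change of luminal over basal for 9 tested TALE cofactors and 2 inhibitors, with bars of 1 SE. Green genes were called higher in luminal cells, purple genes higher in basal cells, and grey genes (Pknox1, Tgif1) were not called at an adjusted p of 0.05.

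Of 19 genes known to act on Hox clusters from outside (Polycomb and Trithorax proteins, histone demethylases, retinoic acid receptors and transcription factors of the embryo), 16 were tested. Of these, 10 were called higher in basal and 2 in luminal cells, against 31.2% and 33.6% of all genes. Their median log2 fold change was -0.55, against 0.05 over all genes tested. Egr2, which drives Hoxb2 and Hoxa2 in the hindbrain, was at 1.25, 1.21, 1.90, 1.83 and 1.46 CPM in luminal and 198, 127, 144, 142 and 161 CPM in basal replicates 1 to 5. Its log2 fold change was -6.66 ± 0.204 (SE; edgeR adjusted p = 2.75e-11). Kdm6b, a demethylase of the Polycomb mark, was also higher in basal cells (-1.62 ± 0.224, SE, edgeR adjusted p = 1.99e-05). The caudal genes Cdx1, Cdx2 and Cdx4, which act on Hox genes in the posterior embryo, never exceeded 1 count.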

How the data were processed

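RNA-seq was carried out on 5 luminal and 5 basal libraries. The table the authors deposited holds raw counts of reads for each gene, whole and not normalized. Per the methods of the study, poly(A) RNA was read from a single end, trimmed by cutadapt and aligned to mm10 by Bowtie2. The submitters' processing notes name cutadapt 4.2 and Bowtie2 2.3.5.1, whereas the methods give another Bowtie2 version. The methods describe fewer replicates than were used here, so their fit to these libraries was assumed. The counting tool and its use of strand are not given in the sources used here. Bowtie2 does not align across splice junctions, which can lower counts of genes with short exons.

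Of 24594 genes, 24570 were matched to a symbol (RefSeq, GRCm38.p6). All genes that passed filterByExpr (14609) were fitted with edgeR 4.0.16 (R 4.3.3), TMM factors and quasi-likelihood tests, without further terms than cell type, and Benjamini-Hochberg adjustment over these genes. Changes are given as luminal over basal, and SE is the log2 fold change over the square root of F. CPM uses TMM-scaled totals. Genes were called at an adjusted p under 0.05. p-values measure the spread between these libraries. Counting limits cover counting error only.

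Hox genes and the other lists were chosen with earlier results of these data known. Hox genes were accounted for by counts, with values by library for those tested and the traces described. Tested cofactors, and regulators and neighbours called with a 2-fold change or at 3 counts or fewer, could be named. Some items of these lists are not reported here. Other neighbours (Hoxb3os, Hoxa11os, Hotairm1, Mir10a, Gm53, Hoxb5os) and the ratios were chosen after seeing values. Same-numbered libraries share a library number, read as the animal. The correlation of their deviations from group means ranged from -0.105 to 0.169 (mean 0.0369), against a mean of -0.00626 for other pairs. Alternatives were other scalings, filters and tests (DESeq2 1.42.0, limma 3.58.1 voom), a replicate block, other detection limits and leaving out each library.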

Additional observations from a re-analysis of the deposited data

Results flagged for a closer look

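In 52 groups of 5 libraries the highest or lowest value was compared with its nearest neighbour. Each group was 1 cell type of a cofactor, of Hoxb3os or of a Hox gene with at least 10 counts in some library. In 10 groups the value stood apart by Dixon's limit for 5 values. Chance gives about 1 in 20 groups where values are continuous, which does not hold for sparse counts. Where 4 of 5 libraries are at 0, any count stands apart by construction, as for Hoxa11 and Hoxc4 in luminal and Hoxd3 in basal cells. In basal replicate 4, Hoxc5 was at 4.81 CPM, Hoxc8 at 3.31 CPM and the cofactor Meis2 at 4.81 CPM, each above the other basal libraries. In luminal replicate 4, Hoxa11 was at 0.763 CPM, Hoxd3 at 1.22 CPM and Hoxc8 at 0.229 CPM, the last being 3 counts. Hoxc4 was at 0.508 CPM in luminal replicate 5, the only luminal library with a count of it. In basal replicate 1, Hoxd8 was at 0.624 CPM and Hoxd3 at 0.0624 CPM, which is a single count. Hoxb1 was at 0.387 CPM in basal replicate 3. None of the values of Hoxb2, Hoxb3 and Hoxb4 stood apart in this way.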

How the results depend on the processing

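The call of Hoxb3 as higher in basal cells held in all 18 alternatives, with log2 fold changes from -0.67 to -0.40 and adjusted p up to 0.0274. Hoxb4 kept its direction and stayed uncalled in all 18, with adjusted p from 0.0542 to 0.493. Hoxb2 stayed uncalled, and its sign reversed with library totals only (0.0068, adjusted p = 0.98). Library totals and upper-quartile factors moved the median log2 fold change of all genes by 0.19 and 0.12 towards luminal. Without a filter on low counts, 6 Hox genes were called higher in basal cells (Hoxb3, Hoxb9, Hoxc6, Hoxd9, and Hoxa2 and Hoxa3, whose counts are identical and are 1 signal) and 1 in luminal cells (Hoxd3), where 24.7% and 24.1% of all genes were, and 1 neighbour (Gm53) was called higher in basal cells. Leaving out 1 library gave 1 to 2 Hox genes called higher in basal cells, the second being Hoxb9, which entered the test without any luminal library or without basal replicate 4, since the filter then asks for fewer libraries. Leaving out 1 library gave 0 to 1 neighbours called higher in basal cells, the 1 being Hoxb3os without basal replicate 4 (adjusted p = 0.0248). With the replicate block, 1 Hox gene was called higher in basal cells and 0 in luminal cells, as without it, the adjusted p of Hoxb3 was 0.00625, the calls of the 22 genes refitted (Hox genes, Hoxb3os, cofactors, inhibitors, and the regulators and flanking genes given with a fold change) did not change, and the cofactors and regulators called higher in basal cells numbered 14 in place of 15. A limit of 1 count in every library gave 7 detected Hox genes in basal cells. With at least 10 counts in at least 3 of 5 libraries as the limit, 4 were detected in basal and 3 in luminal cells. Without basal replicate 4, 4 were detected in basal cells. In both cases the gene added in basal cells was Hoxb9. Per kilobase of exon, the share of paralogue group 3 was 20.2% in luminal and 26.6% in basal libraries (26.4% and 33.65% by CPM), and that of group 4 was 39.2% and 30.4% (31.0% and 23.25%). Of these 22 genes, 18 kept direction and call in every alternative that tested them. Pknox1 was called without luminal replicate 1 (adjusted p = 0.0313), and the lost calls of Meis3 are given above. Depth limits the traces, since 3 counts are 0.158 to 0.232 CPM.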

Other observations

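A pair of traces at the 5′ side of the Hoxb cluster had their counts mainly in basal libraries. Gm53, a non-coding gene between Hoxb13 and Hoxb9, had 7, 33, 2, 0 and 10 counts in basal replicates 1 to 5, and Hoxb9 had 18, 21, 23, 0 and 13. Basal replicate 4 was at 0 for both, and luminal libraries had at most 2 counts of Gm53 and none of Hoxb9.

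Hoxb5os, the antisense gene that overlaps Hoxb5 over 100 exon bases, had 10, 8, 26, 5 and 10 counts in luminal and 4, 2, 1, 0 and 3 counts in basal replicates 1 to 5. The CPM of the luminal libraries lay above that of the basal ones, and neither gene passed the filter on low counts. Both pairs were chosen after their values were seen, and the main comparison has no test of these genes. Without a filter on low counts, edgeR gave adjusted p of 0.0131 for Gm53 and 0.025 for Hoxb5os. In that fit 48.8% of all genes were called, 24.7% higher in basal and 24.1% higher in luminal cells. Since both genes were chosen for their values, these p add little to the counts themselves.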
